A study of Mus with 18 samples.

Results

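The Ifit genes encode interferon-induced proteins built of tetratricopeptide repeats, and 4 of them were followed here: Ifit1, Ifit2, Ifit3 and Ifit3b. They were chosen by gene symbol, as 4 of the 54532 genes in the deposited count table, and all 4 were among the 13251 genes that passed the filter on low counts. The study used RAW264.7 cells, a mouse macrophage-like cell line, harvested after 6 h of treatment, in 6 groups of 3 libraries. Of these, 3 libraries came from cells given lipopolysaccharide (LPS, a bacterial endotoxin) at 1 µg/mL with 100 µM of a cysteine adduct of chlorogenic acid (LPS + CGACys), and 3 from cells given LPS with 100 µM of a cysteine adduct of caffeic acid (LPS + CACys). Another 3 came from cells given LPS with 100 µM of chlorogenic acid (LPS + CGA), the quinic acid ester of caffeic acid, and 3 from cells given LPS with 100 µM of caffeic acid (LPS + CA). The last groups were LPS at 1 µg/mL alone and untreated control cells. No group received a compound without LPS, and none received free cysteine. All cells were of 1 line. Whether the 3 libraries of a group came from independent cultures is not stated, so each p-value reflects only how these libraries vary, which may be technical.

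As background, LPS is sensed by Toll-like receptor 4 with its co-receptor CD14. Signalling through the adaptor TRIF activates the transcription factor IRF3, which induces interferon beta and can also induce Ifit genes directly. Secreted interferon acts back on the cells through its receptor and a transcription factor complex with STAT2 and IRF9, which induces a broad set of antiviral genes. Among the Ifit products, IFIT1 binds viral RNA whose cap lacks ribose methylation and blocks its translation. IFIT2 is an RNA-binding antiviral protein that protects mice from neurotropic viruses. Human IFIT3 binds IFIT1 and stabilises it, and mouse Ifit3b is a close copy of Ifit3.

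Library totals ran from 16105817 to 25624935 counts. The main axis of variation, with 68.2% of the variance, separated control cells from all 15 LPS libraries. Replicate 2 of LPS + CA stood apart on the second axis of a principal component analysis of the LPS libraries, at -28.4 where the others ran from -8.02 to 14.4, so values without it are given where they bear on a call. All 10 macrophage markers were detected, and their summed level was 5015 to 5146 CPM (counts scaled by library size and composition) in LPS + CGACys, 5439 to 5474 in LPS + CACys, 5717 to 5821 in LPS + CGA, 5304 to 5516 in LPS + CA, 5961 to 6177 in LPS alone and 6375 to 6563 in control. The macrophage sum also mixes directions. Lyz2 averaged 776 CPM with LPS alone and 2028 CPM in control, and Cd68, Csf1r, Itgam and Mertk were also lower with LPS alone. Adgre1 averaged 370 CPM with LPS alone and 35.5 CPM in control, and Cd14, Fcgr1, Spi1 and Ptprc were also higher. The 5 epithelial and 5 T cell markers summed to at most 0.221 and 0.261 CPM in any library, and Cd8a was at 0 throughout. The 6 fibroblast markers, with Col3a1 at 0 in every library, summed to 6.71 to 7.04 CPM in LPS + CGACys, 4.63 to 6.08 in LPS + CACys, 3.26 to 4.11 in LPS + CGA, 3.19 to 3.81 in LPS + CA, 4.42 to 5.03 in LPS alone and 1.28 to 1.88 in control. The 5 B cell markers summed to 1.25 to 1.55 CPM in LPS + CGACys, 0.632 to 1.19 in LPS + CACys, 0.416 to 0.630 in LPS + CGA, 0.247 to 0.590 in LPS + CA, 0.559 to 0.700 in LPS alone and 0.254 to 0.324 in control. The 5 plasmacytoid dendritic cell markers, with Siglech at 0 in every library, summed to 911 to 971 CPM in LPS + CGACys, 848 to 909 in LPS + CACys, 618 to 660.2 in LPS + CGA, 598 to 647 in LPS + CA, 707 to 801 in LPS alone and 439.7 to 448 in control. That list includes Bst2, itself interferon-induced, which averaged 484 CPM with LPS alone and 63.9 CPM in control. Ccr9 of the same list was also higher with LPS alone, at 0.603 CPM against 0.018 CPM in control. Tcf4 and Irf8 went the other way, at 122 and 141 CPM with LPS alone against 174 and 206 CPM in control. The sum of this list thus mixes genes that moved in opposite directions. The 5 conventional dendritic cell markers summed to 4.48 to 9.74 CPM over all libraries. With LPS alone the highest fibroblast marker was Pdgfra, at 3.66 CPM, and the highest B cell marker was Pax5, at 0.476 CPM. The sums of the marker lists move partly with the Ifit levels below, and their part in the results was not tested.

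LPS alone against control asked how far the endotoxin by itself raised the family. All 4 genes were low in control cells and rose by 71.8-fold to 376-fold with LPS. Together they took 0.107% to 0.141% of all counts with LPS alone and 0.000993% to 0.00140% in control. In bulk RNA, more cells that express a gene and more RNA per cell cannot be told apart.

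Ifit1 (ENSMUSG00000034459) had 491, 554 and 418 CPM in the LPS libraries, against 1.99, 1.73 and 0.918 CPM in control. Ifit2 (ENSMUSG00000045932) had 587, 684 and 509 CPM with LPS, against 7.96, 9.96 and 6.81 CPM in control. Every LPS library lay far above every control library for both genes. Ifit3 (ENSMUSG00000074896) had 141, 183 and 133 CPM with LPS, against 0.663, 0.610 and 0.702 CPM in control. Ifit3b (ENSMUSG00000062488) had 33.7, 40.2 and 28.4 CPM with LPS, against 0.0474, 0 and 0.216 CPM in control. For these copies too the groups did not overlap, and the order of the LPS libraries was the same for all 4 genes, with replicate 2 highest and replicate 3 lowest.

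A gene was called where edgeR's quasi-likelihood test gave a Benjamini-Hochberg adjusted p, taken over every tested gene, of 0.05 or less. All 4 members were called higher with LPS, where 30.6% of all tested genes were called higher. The log2 change was 8.28 for Ifit1 (SE 0.22, adjusted p = 2.09e-13), 6.17 for Ifit2 (SE 0.19, 1.86e-12), 7.84 for Ifit3 (SE 0.25, 1.74e-12) and 8.56 for Ifit3b (SE 0.31, 1.95e-15). The 95% interval of Ifit2, 5.75 to 6.58, lay below those of the others, whose lowest bound was 7.29. Whether the members differed in their response was not tested. The control level of Ifit3b rests on 5 counts over the group, and the ratio of summed counts, LPS over control, was 404 with a 95% counting interval of 173 to 1246. Without control replicate 3, which holds 4 of those counts, its log2 change was 10.12.

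**Figure D1:**
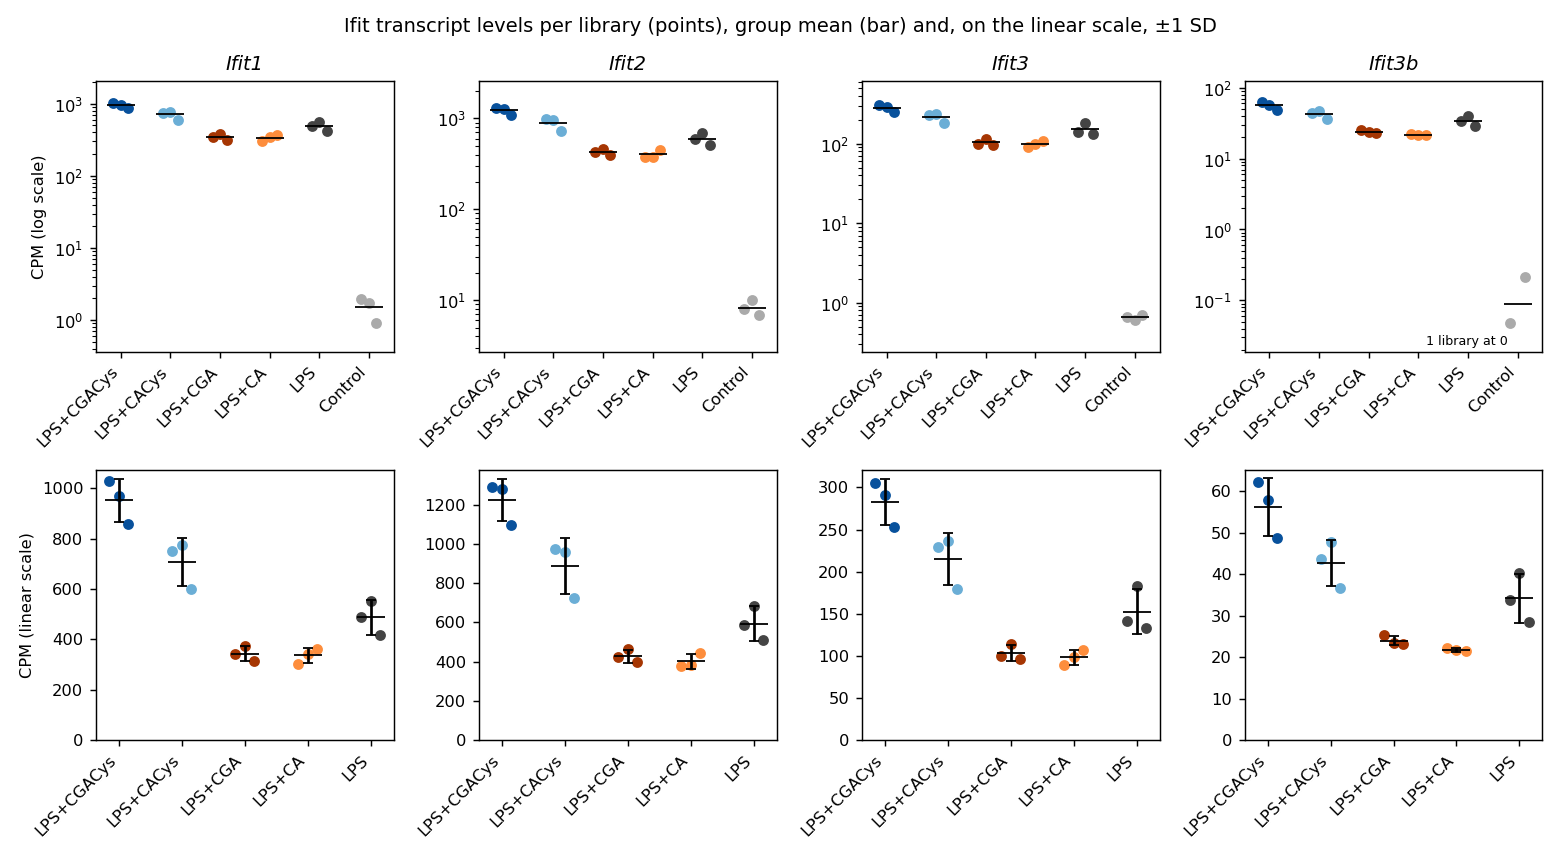
Level of each Ifit gene in CPM per library (points) by group, with group means as bars. The upper row shows all 6 groups on a log scale, and the lower row the 5 LPS groups on a linear scale from 0 with ±1 SD (n = 3). For all 4 genes the means run, from high to low, LPS + CGACys, LPS + CACys, LPS alone, LPS + CGA, LPS + CA and control; for Ifit1 they are 952, 708, 487, 344, 337 and 1.55 CPM.

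The order of the group means was the same for every member. Ifit1 averaged 952 ± 86.3 CPM in LPS + CGACys, 708 ± 94.9 in LPS + CACys, 344 ± 29.6 in LPS + CGA, 337 ± 29.8 in LPS + CA, 487 ± 68.0 in LPS alone and 1.55 ± 0.559 in control (SD, n = 3 each). Among neighbours in that order, 3 of 4 members were called between LPS + CACys and LPS alone. None was called between LPS + CGACys and LPS + CACys, between LPS + CGA and LPS alone, or between LPS + CGA and LPS + CA. LPS + CA against control was not tested, and all LPS + CA libraries lay above all control libraries for every member. The comparisons with LPS alone share its 3 libraries, so they are not independent of each other. Wherever groups are said not to overlap in this report, the share of all tested genes without overlap was not counted. The members also moved together within groups, so separation of all 4 does not amount to 4 independent results.

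The first question about the compounds was how the chlorogenic acid adduct altered the response to LPS. With CGACys all 4 Ifit genes rose over LPS alone, by 1.65-fold to 2.06-fold. Ifit1 had 1028, 971 and 858 CPM with CGACys, and Ifit2 had 1289, 1282 and 1098 CPM. Every CGACys library lay above every library with LPS alone, whose highest values were 554 CPM for Ifit1 and 684 CPM for Ifit2. Ifit3 had 305, 291.5 and 253 CPM with CGACys, and Ifit3b had 62.2, 57.8 and 48.7 CPM. These also lay above all LPS libraries, and replicate 3 was the lowest of the CGACys libraries for each gene.

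All 4 members were called higher with CGACys, where 16.1% of tested genes were called higher. The log2 change was 0.97 for Ifit1 (SE 0.13, edgeR adjusted p = 7.05e-05), 1.04 for Ifit2 (SE 0.14, 7.7e-05), 0.89 for Ifit3 (SE 0.13, 0.000142) and 0.72 for Ifit3b (SE 0.12, 9.77e-05). Their median was 0.93, against 0.02 over all tested genes. The members stayed called when any of the 6 libraries was left out.

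For the caffeic acid adduct the question was the same. With CACys Ifit1, Ifit2 and Ifit3 rose over LPS alone, by 1.45-fold, 1.49-fold and 1.41-fold. Ifit1 had 750.4, 774 and 599 CPM with CACys, all above the LPS libraries. Ifit2 had 977, 959.6 and 723 CPM with CACys, again with no overlap. Ifit3 had 229, 236 and 179 CPM with CACys, of which the lowest fell below the 183 CPM of LPS replicate 2. Ifit3b had 43.6, 47.7 and 36.7 CPM with CACys, and its groups overlapped too.

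Of 4 members 3 were called higher with CACys, where 8.51% of tested genes were called higher. The log2 change was 0.54 for Ifit1 (SE 0.13, edgeR adjusted p = 0.0123), 0.58 for Ifit2 (SE 0.14, 0.0128) and 0.49 for Ifit3 (SE 0.13, 0.0209). Ifit3b stood at 0.32 (95% interval 0.07 to 0.57, adjusted p = 0.0817). These calls are near the threshold. None was made without LPS replicate 3, CACys replicate 1 or CACys replicate 2 (adjusted p from 0.0518 to 0.0855 for Ifit1, Ifit2 and Ifit3) or when only these groups were fitted (0.103 to 0.17). Without LPS replicate 1 the Ifit3 call ended (0.0856), and all 4 were called without LPS replicate 2 or CACys replicate 3.

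With chlorogenic acid every member was lower than with LPS alone, without being called. Ifit1 had 342, 374 and 315 CPM with CGA, and Ifit2 had 424, 463 and 397 CPM. Ifit3 had 100.2, 114 and 96.3 CPM with CGA, and Ifit3b had 25.3, 23.4 and 23.2 CPM. For each gene the highest CGA library lay below the lowest library with LPS alone, a separation that was not counted over all tested genes. The log2 changes ran from -0.56 for Ifit3 to -0.47 for Ifit2, and all 4 intervals excluded 0, the widest running from -0.77 to -0.17.

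By edgeR 0 of 4 were called with CGA (adjusted p from 0.0618 for Ifit3b to 0.164 for Ifit2), where 0.657% of tested genes were called lower. All 4 had an unadjusted p under 0.05, a cut for which the share of all tested genes was not counted. DESeq2 called all 4 lower (adjusted p from 0.000183 for Ifit3 to 0.0476 for Ifit2). It called lower 3.74% of the 6307 genes to which it gave an adjusted p here, a smaller set than edgeR's. Without LPS replicate 3 edgeR called Ifit1, Ifit3 and Ifit3b (0.00504 to 0.0321).

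The last question against LPS alone was how caffeic acid altered the family. All 4 members fell with CA, to 0.691 of the LPS level for Ifit1, 0.676 for Ifit2, 0.643 for Ifit3 and 0.638 for Ifit3b. Ifit1 had 304, 344 and 362 CPM with CA, and Ifit2 had 378, 381 and 445 CPM. Ifit3 had 89.6, 98.3 and 107 CPM with CA, and Ifit3b had 22.2, 21.7 and 21.4 CPM. Every CA library lay below every library with LPS alone for each gene, and replicate 2, which stood apart over all genes, lay between its fellows.

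All 4 members were called lower with CA, where 5.42% of tested genes were called lower. The log2 change was -0.53 for Ifit1 (SE 0.13, edgeR adjusted p = 0.0206), -0.56 for Ifit2 (SE 0.14, 0.0235), -0.64 for Ifit3 (SE 0.13, 0.00822) and -0.65 for Ifit3b (SE 0.12, 0.00214). The calls of Ifit1 and Ifit2 ended when replicate 1 or 2 of either group was left out (edgeR adjusted p from 0.0534 to 0.113), and those of Ifit3 and Ifit3b held there (0.0107 to 0.0395).

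**Figure D2:**
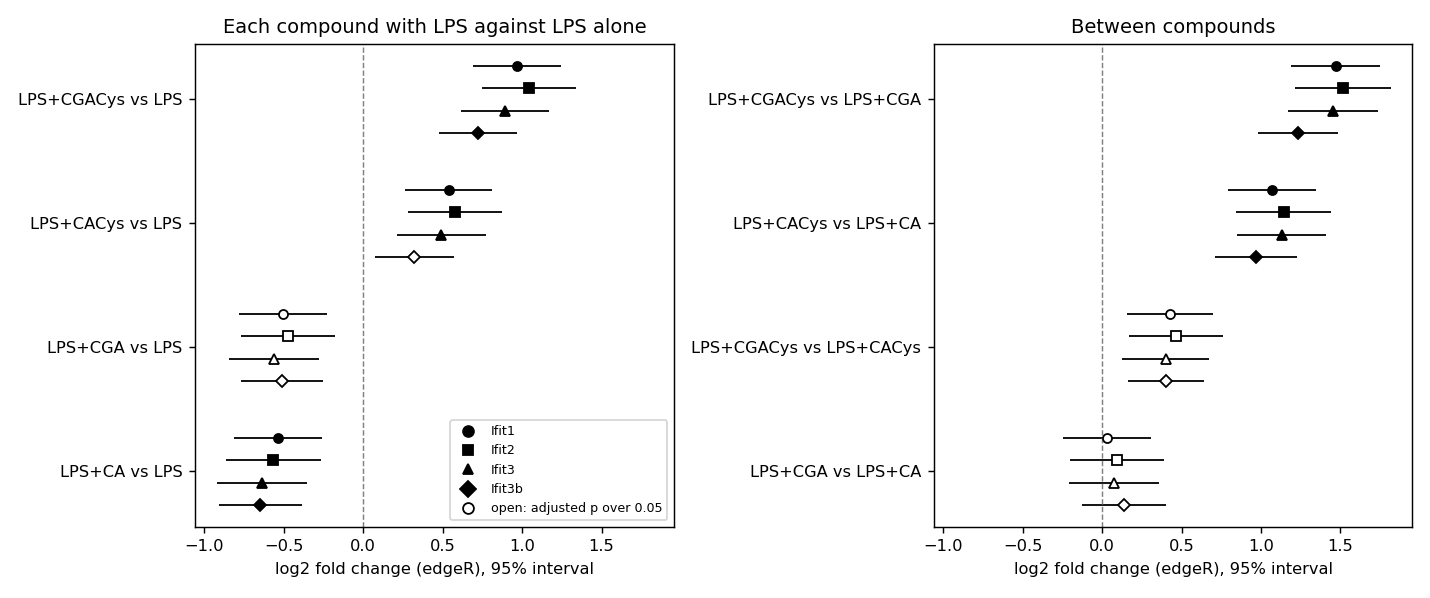
log2 fold change of each Ifit gene with its 95% interval, for each compound with LPS against LPS alone (left) and between compounds (right). Filled symbols are called by edgeR and open symbols have an adjusted p over 0.05. Both adducts lie right of 0 against LPS and both parent acids left of it, and the adduct against parent differences run from 0.97 to 1.51.

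The compounds were given at the same dose and time, so they were also compared with each other in 4 pairs that differ by 1 named change. The cysteine adduct of each acid was set against its parent. With CACys all 4 genes rose relative to CA, by 2.10-fold for Ifit1, 2.21-fold for Ifit2, 2.19-fold for Ifit3 and 1.96-fold for Ifit3b, where 15.2% of tested genes were called higher (edgeR adjusted p from 5.14e-06 to 3.44e-05). With CGACys all 4 rose relative to CGA, by 2.77-fold, 2.86-fold, 2.74-fold and 2.35-fold in the same gene order, where 18.2% of tested genes were called higher (1.09e-07 to 1.83e-06). No adduct library overlapped a library of its parent acid for any member, and no omitted library ended a call.

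The acids were then compared across the quinic acid ester. Between CGA and CA 0 of 4 members were called by edgeR and by DESeq2, where edgeR called 1.38% of tested genes either way, and 0 of 4 had an unadjusted p under 0.05. The log2 difference, CGA minus CA, ran from 0.03 for Ifit1 (95% interval -0.24 to 0.31) to 0.14 for Ifit3b (-0.13 to 0.40). The intervals thus leave room for a difference of up to 0.40. Between CGACys and CACys all 4 were higher with CGACys in every library, with log2 differences of 0.43 for Ifit1 (0.16 to 0.70), 0.46 for Ifit2 (0.17 to 0.76), 0.40 for Ifit3 (0.13 to 0.67) and 0.40 for Ifit3b (0.16 to 0.64). By edgeR 0 of 4 were called (adjusted p from 0.0853 to 0.145), where 1.02% of tested genes were called higher, while all 4 had an unadjusted p under 0.05. The shares of all tested genes under that unadjusted cut, or without overlap, were not counted. The members moved together, so they are not 4 independent results. Without CGACys replicate 3 edgeR called Ifit3b (adjusted p = 0.0329). DESeq2 called Ifit3 (adjusted p = 0.0144) and Ifit3b (0.0255). It called higher 2.47% of the 8865 genes to which it gave an adjusted p here, a smaller set than edgeR's.

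The adduct effect in chlorogenic acid minus that in caffeic acid was not called for any member by edgeR or DESeq2, where edgeR called 2.18% of tested genes either way. It was 0.40 on the log2 scale for Ifit1 (95% interval 0.01 to 0.79, edgeR adjusted p = 0.308), the 1 member with an unadjusted p under 0.05, and 0.26 for Ifit3b (-0.09 to 0.62, 0.486).

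The members also moved together from library to library within groups. Over the 15 LPS libraries the correlation of log2 CPM ran from 0.981 to 0.997 over the 6 pairs of members. For deviations from the group means it was 0.953 to 0.959 among Ifit1, Ifit2 and Ifit3 and 0.803 to 0.812 for the pairs with Ifit3b, which has the lowest counts. These libraries share treatments and scaling, and the copies may share reads, so the values are descriptive.

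Ratios of raw counts within a library do not depend on the scaling factors and were compared between adducts and parent acids. The ratio of Ifit3 to Ifit3b was 5.05 ± 0.144 in LPS + CGACys, 5.03 ± 0.198 in LPS + CACys, 4.32 ± 0.463 in LPS + CGA, 4.52 ± 0.483 in LPS + CA and 4.48 ± 0.260 in LPS alone (SD, n = 3 each). The adduct ranges overlapped those of the parent acids through CA replicate 3. In a two-sided exact permutation test within each acid the log2 ratio was higher by 0.19 with the adducts (p = 0.02, adjusted over 6 pairs 0.06; the smallest p possible is 0.005). The exact permutation test gave the same adjusted p of 0.06 for Ifit1 over Ifit3b (0.18) and Ifit2 over Ifit3b (0.23). Over 12 omissions of 1 library the adjusted p of the exact permutation test ran from 0.01 to 0.17 for Ifit1 over Ifit3b and from 0.01 to 0.135 for the other ratios over Ifit3b. It was 0.05 or less without CA replicate 3 or CGA replicate 2, and over 0.05 when any 1 of the other 10 libraries was left out. The ratios among Ifit1, Ifit2 and Ifit3 differed by at most 0.06 (exact permutation adjusted p from 0.15 to 0.29).

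**Figure D3:**
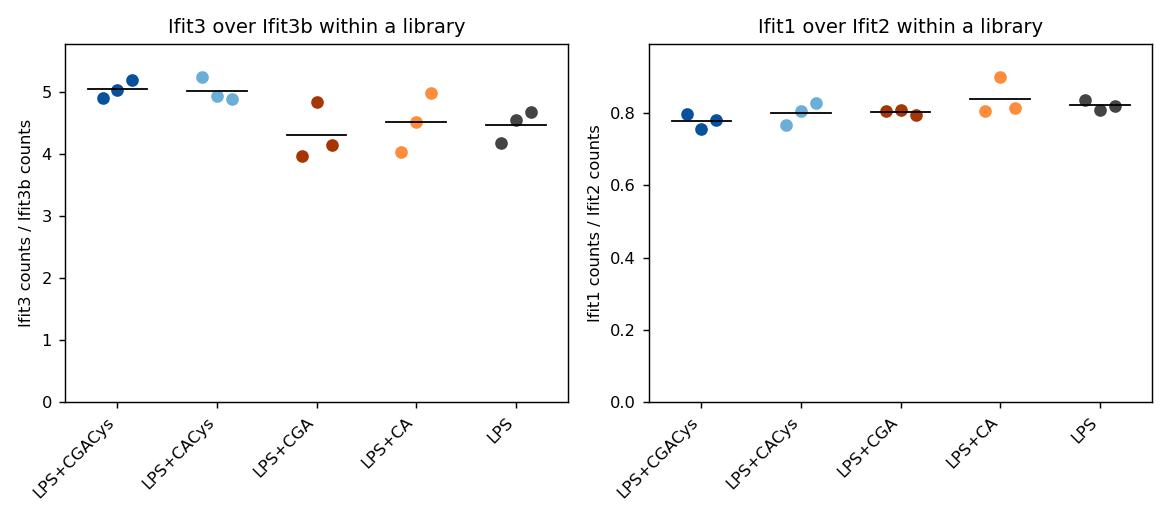
Ratio of raw counts within each library, for Ifit3 over Ifit3b (left) and Ifit1 over Ifit2 (right), by group, with the group mean as a line and both axes from 0. The adduct libraries lie between 4.88 and 5.25 for Ifit3 over Ifit3b and the parent acid libraries between 3.97 and 4.99, while Ifit1 over Ifit2 stays between 0.757 and 0.902.

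Ifit3 and Ifit3b are close copies, and the labels do not say how reads that match both were counted, so their split is uncertain. With their counts summed into 1 feature, the log2 change was 0.86 with CGACys (edgeR adjusted p = 0.000146), 0.46 with CACys (0.0243), -0.55 with CGA (0.0712) and -0.64 with CA (0.00636), each against LPS alone, and 7.96 for LPS alone against control (7.44e-13).

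All 4 members lie in 1 cluster on chromosome 19, between 34550550 and 34650009 of build GRCm38.p6 (mm10). In order of their start they are Ifit2 (34550550 to 34576534), Ifit3 (34583119 to 34588982), Ifit3b (34607530 to 34613403) and Ifit1 (34640889 to 34650009). The related Ifit1bl1 (34592888 to 34662981) and Ifit1bl2 (34617046 to 34640827) lie among them, and the annotated span of Ifit1bl1 covers Ifit3b, Ifit1bl2 and Ifit1. Reads from overlapping exons cannot be told apart where the counting rule is not stated.

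Ifit1bl1 averaged 36.4 ± 4.39 CPM with CGACys, 26.7 ± 6.15 with CACys, 12.9 ± 1.11 with CGA, 10.8 ± 1.04 with CA and 18.7 ± 2.75 with LPS alone (SD, n = 3). It rose with CGACys (log2 0.96, edgeR adjusted p = 2.56e-05) and CACys (0.51, 0.0205, with overlapping groups) and fell with CA (-0.80, 0.0021), and stood at -0.53 with CGA (0.111). Ifit1bl2 averaged 25.4 ± 5.70 CPM with CGACys, 25.5 ± 7.30 with CACys and 13.2 ± 1.45 with LPS alone (SD, n = 3). It rose with both adducts (log2 0.95 with CGACys, edgeR adjusted p = 0.00381, and 0.94 with CACys, 0.00868), and its CGACys minus CACys difference was 0.00 (95% interval -0.43 to 0.44). With neither parent acid was Ifit1bl2 called (log2 -0.54 with CGA, edgeR adjusted p = 0.44, and -0.69 with CA, 0.105). Against control LPS raised both, by a log2 of 7.23 for Ifit1bl1 and 7.48 for Ifit1bl2, with 7 and 4 control counts over the group.

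Within 200 kb outside the cluster 3 protein-coding genes were tested. Ch25h, which encodes cholesterol 25-hydroxylase and is itself interferon-induced, averaged 2.002 ± 0.588 CPM in LPS + CGACys, 2.17 ± 0.572 in LPS + CACys, 1.81 ± 0.401 in LPS + CGA, 1.09 ± 0.206 in LPS + CA, 2.90 ± 0.635 in LPS alone and 0.558 ± 0.0957 in control (SD, n = 3). It rose with LPS (log2 2.37, edgeR adjusted p = 1.96e-07) and fell with CA (-1.39, 0.00159). It stood at -0.53 with CGACys (0.143), -0.42 with CACys (0.32) and -0.68 with CGA (0.294). Lipa, the lysosomal acid lipase gene, averaged 806 ± 36.6 CPM with CGACys and 738 ± 21.2 with LPS alone (log2 0.13, 0.0449). Pank1, a pantothenate kinase gene, averaged 6.82 ± 0.807 CPM with CGACys and 8.94 ± 2.08 with LPS alone (log2 -0.39, 0.038), and it fell with LPS relative to control (-0.94, 2.36e-07).

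**Figure D4:**
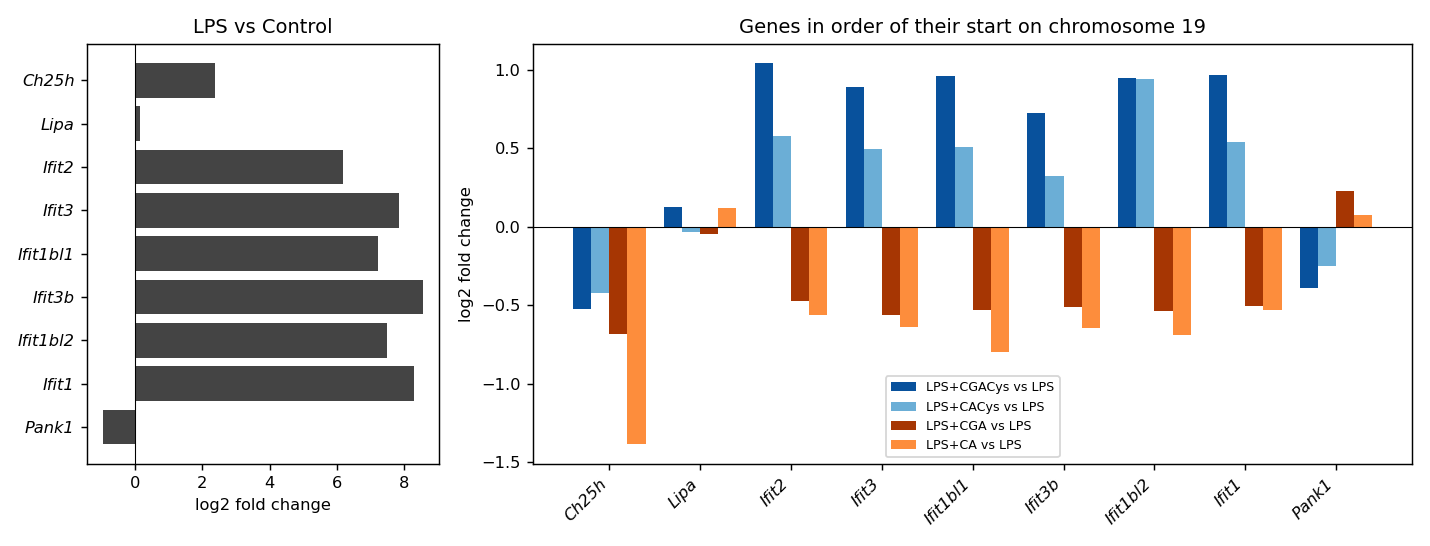
log2 fold change of the tested protein-coding genes of the Ifit cluster and within 200 kb outside it, in order of their start on chromosome 19, for LPS against control (left) and for each compound with LPS against LPS alone (right). The 6 Ifit genes rise by a log2 of 6.17 to 8.56 with LPS and lie above 0 with both adducts and below 0 with both acids, while Ch25h lies below 0 with all compounds.

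The pathway around the family was read from gene lists drawn from general knowledge of interferon responses. The lists were chosen with earlier results of these data known, so their counts are descriptive. Of 50 other interferon-induced genes 50 were called higher with LPS alone against control. Relative to LPS alone 49 were called higher with CGACys (median log2 0.65), 37 higher with CACys (0.38), 16 lower with CGA (-0.37) and 48 lower with CA (-0.50), and no member was called the other way in these comparisons. Over all tested genes 30.6% were called higher with LPS alone against control. Relative to LPS alone 16.1% were called higher with CGACys, 8.51% higher with CACys, 0.657% lower with CGA and 5.42% lower with CA. The median over all tested genes was between -0.02 and 0.02 in each of these comparisons. With 1 library omitted at a time, the counts ran from 46 to 50 with CGACys, from 25 to 45 with CACys, from 0 to 40 with CGA and from 38 to 49 with CA. The CGA count was 0 without LPS replicate 1, LPS replicate 2 or CGA replicate 3, 2 without CGA replicate 1, 40 without LPS replicate 3, 39 by DESeq2, 35 with no filter on low counts and 8 when only CGA and LPS libraries were fitted. With CACys it was 16 when only those groups were fitted. The Ifit medians in the same comparisons were 0.93, 0.52, -0.51 and -0.60.

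The genes of this list named by size with CGACys were Mx1, Rsad2 and Gbp5. Mx1, an interferon-induced GTPase gene that the annotation used here lists as a transcribed pseudogene, averaged 283 ± 24.9 CPM with CGACys and 115 ± 16.8 with LPS alone (log2 1.30, edgeR adjusted p = 7.14e-07). Rsad2, which encodes viperin, a radical SAM enzyme, stood at a log2 of 1.29 with CGACys (2.01e-05) and 0.74 with CACys (0.00394). Gbp5, a guanylate-binding protein gene, averaged 356 ± 25.0 CPM with CGACys and 218 ± 24.0 with CACys, and that difference was called (log2 0.71, 0.000798). Between these adducts 10 of the 50 listed genes were called higher by edgeR and 40 were not called. Over all tested genes 1.02% were called higher. With 1 library omitted at a time the list count ran from 2 to 9.

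Upstream of the family, 19 of 20 genes for LPS sensing, interferon, its receptor, STATs and IRFs were tested, with Irf7 on both lists. With CGACys 12 were called higher and 2 lower, with CACys 6 higher and 2 lower, with CGA 0 (edgeR, with 9 at an unadjusted p under 0.05, and 4 lower by DESeq2) and with CA 7 lower. Over all tested genes 13% were called lower with CGACys and 5.75% with CACys. The share of all tested genes with an unadjusted p under 0.05 with CGA was not counted. Leaving out each library gave 3 to 7 higher with CACys, with 3 when LPS replicate 1, CACys replicate 1 or CACys replicate 2 was omitted. With CA it gave 3 to 7 lower, with 3 and 4 when LPS replicate 2 and LPS replicate 1 were omitted. With CGA 4 were lower when LPS replicate 3 was omitted and 1 when CGA replicate 2 was omitted. Fitting only the groups compared gave 3 higher with CACys, 1 lower with CGA and 4 lower with CA.

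Irf7, an interferon-induced transcription factor gene, averaged 785 ± 66.8 CPM in LPS + CGACys, 694 ± 63.4 in LPS + CACys, 379 ± 33.0 in LPS + CGA, 332 ± 4.03 in LPS + CA, 509 ± 80.3 in LPS alone and 13.4 ± 1.19 in control (SD, n = 3). It rose with CGACys (log2 0.63, edgeR adjusted p = 0.00032) and CACys (0.45, 0.00896), fell with CA (-0.62, 0.00166) and stood at -0.43 with CGA (0.0823). Stat2 averaged 298 ± 29.1 CPM with CGACys and 200.1 ± 21.6 with LPS alone (log2 0.58, 0.00203), and it fell with CA (-0.51, 0.0172). Cd14, the gene of the LPS co-receptor, moved the other way with the adducts. It averaged 892 ± 18.9 CPM with CGACys, 1060 ± 29.1 with CACys and 1362 ± 38.1 with LPS alone (log2 -0.61 and -0.36, edgeR adjusted p = 4.91e-11 and 2.03e-06). Its log2 change from parent acid to adduct in chlorogenic acid minus that in caffeic acid was -0.35 (edgeR adjusted p = 0.00235). Ticam2, which encodes the TRIF-related adaptor TRAM, averaged 3.82 ± 0.720 CPM with CGACys and 2.52 ± 0.312 with LPS alone (0.60, 0.0448). Ifnb1, the interferon beta gene, which was chosen outside the naming rule and after its values were seen, averaged 0.971 ± 0.162 CPM in LPS + CGACys, 0.778 ± 0.117 in LPS + CACys, 0.289 ± 0.125 in LPS + CGA, 0.285 ± 0.360 in LPS + CA and 0.440 ± 0.255 in LPS alone (SD, n = 3). All 3 control libraries had 0 counts of Ifnb1. Against LPS alone no compound was called (edgeR adjusted p from 0.129 to 0.841), and CGACys was called higher than CGA (log2 1.68, 0.0217).

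The genes whose log2 CPM followed the mean of the 4 members most closely over the 15 LPS libraries were Trafd1 (Pearson r = 0.997), Gbp2b (0.996), Apol9a (0.996), Gbp2 (0.995) and Cmpk2 (0.995). By single member the closest were Apol9a for Ifit1 (0.996), Cmpk2 for Ifit2 (0.996), Trafd1 for Ifit3 (0.995) and Phf11a for Ifit3b (0.992). Trafd1 encodes a zinc finger protein that restrains innate signalling, and Cmpk2 a mitochondrial nucleotide kinase. Trafd1 averaged 342 CPM with CGACys and 218 CPM with LPS alone, and Apol9a 101 CPM with CGACys and 47.9 CPM with LPS alone. The libraries share their treatments and scaling factors, so these correlations are a description of likeness.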

How the data were processed

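The deposited values were raw counts per Ensembl gene, whole numbers that the authors did not normalise. The submitters' processing notes name the mm10 build, HISAT and DESeq2, without versions. The counting program, the strandedness and the annotation release are not given in the sources used here.

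From the counts, 1 edgeR 4.0.16 fit (R 4.3.3) over all 18 libraries used filterByExpr, TMM factors and robust quasi-likelihood dispersions. Each of 10 contrasts had an F test, and p-values were adjusted by Benjamini-Hochberg over 13251 genes. SEs came from the log2 change and the root of its F statistic. Levels are CPM with TMM factors, and log2 CPM used a prior count of 2. The alternatives were RLE and upper-quartile factors, 2 other filters, a replicate block, fits restricted to the compared groups, DESeq2 (1.42.0), leaving out each library, and summed Ifit3 and Ifit3b counts. Ratios within a library had an exact permutation test.

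The members, lists and tests were chosen with earlier results of these data known, and the list counts under the alternatives were added after seeing the data. The naming rule took all 4 members, the other Ifit1, Ifit2 and Ifit3 genes, neighbours within 200 kb, the genes most like the family, and the called list genes with the largest change with CGACys. Gene positions came from RefSeq for GRCm38.p6, matched by symbol. No gene lengths were used, so levels were not compared between genes. The edgeR fit was tested on counts simulated from its own dispersions, and the ratio test on other simulated counts. Neither tests whether the simulated settings match these data. Intervals of summed counts cover counting error only. No replicate pair within a group agreed within sampling noise. Depth ran from 16105817 to 25624935 counts per library.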

Additional observations from a re-analysis of the deposited data

How the results depend on the processing

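No member changed direction in any contrast where it was called, and of 584 values of a member under an alternative 539 kept their side of the threshold, 21 lost it and 24 gained it. The number of members called was unchanged by RLE factors, upper-quartile factors and the filter of 1 CPM in 3 libraries. With CGA against LPS alone it was 0, but 1 with no filter, 3 with a replicate block, 1 when only the compared groups were fitted and 4 by DESeq2, and 0 to 3 when each library was left out. Between CGACys and CACys it was 0, but 1 with no filter, 3 with the replicate block and 2 by DESeq2, and 0 to 1 when each library was left out. With CACys against LPS alone it was 3, but 4 with no filter (Ifit3b, edgeR adjusted p = 0.00152), 4 with the replicate block, 0 when only the compared groups were fitted, and 0 to 4 when each library was left out. With CA against LPS alone it was 4, and 2 to 4 when each library was left out. The cause of these moves was not tested.

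Deviations of same-numbered libraries from their group means correlated from -0.125 to 0.106 over the 15 pairs of groups, 1 of 45 values was over 0.1, and no pair of groups had all 3 over 0.1, so the numbers were not taken as pairs. With the replicate block 40 of the other interferon-induced genes were called lower with CGA, against 16 without it. Over all genes the calls with CGA were 96 in all, and 290 with no filter, 197 with the replicate block, 283 when only the compared groups were fitted, 258 by DESeq2 and 0 to 233 when each library was left out. With CA the 1023 calls were 434 when only the compared groups were fitted and 541 to 1439 when each library was left out, and with CACys the 1890 calls were 1223 to 1694. Between the acids the 183 calls were 614 with no filter, 3 in the restricted fit, 419 by DESeq2 and 45 to 1063 when each library was left out. Between the adducts the 239 calls were 409, 560, 386 and 87 to 198 in the same order. For the difference of adduct effects the 289 calls were 457, 166, 443 and 162 to 519. Between CACys and CA the 3589 calls were 2145 in the restricted fit.

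Leaving out each library moved the log2 ratio between adducts and parent acids from 0.132 to 0.215 for Ifit1 over Ifit3b, from 0.203 to 0.277 for Ifit2 over Ifit3b and from 0.155 to 0.238 for Ifit3 over Ifit3b. Depth limits the control levels of Ifit3b, Ifit1bl1 and Ifit1bl2 and the level of Ifnb1.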

Other observations

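Among 8 genes that restrain or terminate interferon signalling, 4 were called higher with CGACys, 3 higher with CACys, 1 lower with CGA and 2 lower with CA, each against LPS alone, by edgeR. Over all tested genes the shares called in those directions were 16.1%, 8.51%, 0.657% and 5.42%. With 1 library omitted at a time the counts ran from 3 to 4 with CGACys and from 2 to 3 with CACys. Leaving out LPS replicate 2 left 1 lower with CA, as did fitting only the compared groups. The call with CGA was lost when only the compared groups were fitted and in each omission of 1 library other than LPS replicate 3. The genes named here were chosen after their values were seen. Irf2, which encodes a repressor that competes with IRF1, averaged 108 ± 5.57 CPM with CGACys, 53.7 ± 5.26 with CA and 65.5 ± 3.80 with LPS alone (SD, n = 3), with edgeR adjusted p of 7.7e-09 with CGACys and 0.00985 with CA. Usp18, whose product cleaves ISG15 from proteins and restrains the interferon receptor, averaged 944 ± 64.2 CPM with CGACys, 405 ± 15.3 with CA and 601 ± 80.4 with LPS alone (0.00018 and 0.00236). Usp18 was also counted among the other interferon-induced genes above. Socs3, a suppressor of cytokine signalling, averaged 531 ± 42.6 CPM with CGACys and 344 ± 13.4 with LPS alone (1.1e-05), and with CA it stood at 302 ± 11.4 CPM (0.187). Socs1 averaged 16.4 ± 1.48 CPM with CGACys and 11.9 ± 0.974 with LPS alone (0.0926).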
